A study of Mus musculus with 20 samples.

Results

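Levels of 10 immediate-early genes (Fos, Fosb, Jun, Junb, Atf3, Egr1, Nr4a1, Ier2, Zfp36 and Dusp1) were measured in 20 mouse breast tumors. The genes were chosen by their symbols, with earlier results of these data known. All 10 of them were found among the 43346 genes of the count table, and all 10 were among the 18883 genes that had enough counts to be tested. Each tumor came from a different female F1 mouse bred from a BALB/c-neuT male and a wild-type FVB/J female. BALB/c-neuT males carry 1 copy of neuT, an activated rat form of the HER2/neu oncogene that drives mammary tumors. Every mouse of the series carried it, so the 20 mice share 1 germline genotype, and their tumors arose spontaneously. The tumors themselves differ in genotype, since tumors of this cross gain and lose chromosomes. The sample names put 9 tumors in a group called Lo and 11 in a group called Hi, and the labels do not say what Lo and Hi stand for. Tumors are named here by group and number, such as Hi_1. No normal mammary tissue was analysed here. RNA was extracted from 1 small frozen piece of each tumor, so the values mix all the cells of the piece, and fewer cells of a type cannot be told apart from less RNA per cell. The mice were killed with carbon dioxide, and the tumors were removed after death and frozen. The pieces were later thawed and weighed before they were homogenized. The time from death to freezing is not given, and the part of this handling in the levels was not tested.

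Immediate-early genes are switched on within minutes of a stimulus, such as a growth factor, serum or stress, without the need for new protein. Their promoters are held ready by factors such as SRF with its partners of the Elk family, and by CREB, which kinases of the ERK and p38 pathways activate. Most of the products are transcription factors, which go on to drive a later wave of genes, while others shut the response down by destroying mRNA or by inactivating the kinases.

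The genes lie on 8 chromosomes of the mm10 assembly. The AP-1 and ATF genes are Fos (ENSMUSG00000021250, chr12:85473890-85477273), Fosb (ENSMUSG00000003545, chr7:19302721-19310045), Jun (ENSMUSG00000052684, chr4:95049034-95052222), Junb (ENSMUSG00000052837, chr8:84976909-84978748) and Atf3 (ENSMUSG00000026628, chr1:191170296-191218039). The other transcriptional regulators are Egr1 (ENSMUSG00000038418, chr18:34859823-34864984), Nr4a1 (ENSMUSG00000023034, chr15:101266846-101274792) and Ier2 (ENSMUSG00000053560, chr8:84661331-84662852). The inhibitors of the response are Zfp36 (ENSMUSG00000044786, chr7:28376784-28379255) and Dusp1 (ENSMUSG00000024190, chr17:26505590-26508519). Ier2 and Junb lie 314.1 kb apart on chromosome 8. Jun shares 689 bases with Junos, an antisense gene, and since the strand setting of the counting is not given in the sources used here, reads in this stretch could belong to either.

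Total counts ranged from 38765682 to 65465755 per tumor, with a median of 49881778.5, and the genes Yam1 and AY036118 of the ribosomal RNA locus took from 6.29% to 27.7% of them. No 2 of the 190 pairs of libraries were identical or agreed within sampling noise. The epithelial markers Epcam (876 to 1334 CPM), Krt8 (568 to 1105 CPM) and Krt18 (505 to 1083 CPM) were high in every tumor, and the leukocyte marker Ptprc lay between 13.8 and 26.0 CPM. Other markers went the other way, with the epithelial marker Krt19 at 9.45 to 52.7 CPM and the leukocyte marker Lcp1 at 209 to 568 CPM. These levels therefore do not give the shares of the cell types. CPM are counts scaled to a library total of 1000000, with TMM factors. Among the immediate-early genes, the fewest counts of any tumor were 46 for Fosb, 215 for Atf3 and 328 for Dusp1, so that a low level of Fosb rests on few reads.

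Promoter sequences show how Fos and some of the genes that followed it closely differ in the elements next to their start. The stretches below are RefSeq promoters of GRCm38.p6, the assembly of mm10, read 5′ to 3′ on the strand of the gene, and end at the start of the gene. Those of Zfp36 and Dusp1 are shown only outside the gene as the count table bounds it. They are Fos on the plus strand (chr12:85473640-85473889), Zfp36 (chr7:28379256-28379478), Dusp1 (chr17:26508520-26508722) and Fosb (chr7:19310046-19310295) on the minus strand, and, as the gene least related to Fos, Nr4a1 on the plus strand (chr15:101266596-101266845). Capitals mark matches to TGACGT or TGACGTCA, the short and the full site of CREB and ATF proteins (CRE), to TGANTCA, the site of AP-1, to the TATA box TATAAA, and to the CArG box, the core of the SRF site.
Fos: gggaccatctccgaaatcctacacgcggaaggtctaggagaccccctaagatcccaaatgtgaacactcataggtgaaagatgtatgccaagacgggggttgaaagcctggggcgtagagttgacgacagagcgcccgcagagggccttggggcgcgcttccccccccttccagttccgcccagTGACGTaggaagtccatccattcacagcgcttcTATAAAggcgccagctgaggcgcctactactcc
Zfp36: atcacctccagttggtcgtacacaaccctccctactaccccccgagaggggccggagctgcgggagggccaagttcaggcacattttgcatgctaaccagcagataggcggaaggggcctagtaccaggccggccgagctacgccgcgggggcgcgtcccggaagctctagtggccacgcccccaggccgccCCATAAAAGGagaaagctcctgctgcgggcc
Dusp1: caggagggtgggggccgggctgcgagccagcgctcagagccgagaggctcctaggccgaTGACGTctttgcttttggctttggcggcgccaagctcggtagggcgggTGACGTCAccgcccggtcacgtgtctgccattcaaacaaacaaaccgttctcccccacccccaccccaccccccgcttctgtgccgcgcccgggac
Fosb: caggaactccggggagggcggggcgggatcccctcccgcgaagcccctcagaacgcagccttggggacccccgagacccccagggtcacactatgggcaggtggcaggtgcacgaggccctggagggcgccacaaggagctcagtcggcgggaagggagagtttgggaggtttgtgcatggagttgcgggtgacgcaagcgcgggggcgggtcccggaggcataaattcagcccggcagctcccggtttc
Nr4a1: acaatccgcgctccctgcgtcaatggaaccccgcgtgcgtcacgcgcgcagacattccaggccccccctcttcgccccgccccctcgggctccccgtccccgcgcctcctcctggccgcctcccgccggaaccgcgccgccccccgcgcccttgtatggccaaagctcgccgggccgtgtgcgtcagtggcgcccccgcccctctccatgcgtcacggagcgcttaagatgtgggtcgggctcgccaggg
The Fos sequence holds a short CRE and a TATA box shortly before its start, that of Zfp36 a CArG box, and that of Dusp1 a full CRE and a separate short one, while Fosb and Nr4a1 hold none of the marked elements.

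RefSeq promoters were matched for 8 of the 10 genes, all but Egr1 and Ier2, and were searched on both strands over 250 bases before the start, in the same window of 27025 genes. The RefSeq start of Atf3 lies inside the gene as the count table bounds it. The short CRE TGACGT, which every full CRE also contains, was found in 3 of the 8 (Fos, Atf3 and Dusp1) and in 6.56% of all promoters. The full CRE TGACGTCA was found in Dusp1 alone among the 8 and in 1.62% of all promoters, the CArG box in Zfp36 alone and in 1.4%, and the TATA box in Fos alone and in 13% of all promoters. Binding sites of the products of these genes were searched as well. GCGNGGGCG, a site of EGR proteins, was present in Fosb, Nr4a1 and Zfp36 and in 4.65% of all promoters, while AAAGGTCA, the site of Nr4a1, was in none of the 8 and in 1.31% of all promoters. The AP-1 site TGANTCA was likewise in none of the 8, against 6.87% of all promoters, and the GC box GGGCGG was in 7 of 8, all but Junb, against 32.9% of all promoters. These are matches of letters in a short window, and binding was not measured. Elements farther than 250 bases before the start were not searched, so a gene without a match here may hold one farther away.

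Fos and Fosb were the most variable of the 10 genes. Fos, which encodes the founding FOS subunit of AP-1, ranged from 28.7 CPM in Hi_3 through a median of 58.3 CPM to 389 CPM in Hi_1, a 13.6-fold range, with a mean of 90.1 ± 88.8 CPM (SD, n = 20). A group of 4 tumors stood above the rest: Hi_1, then Hi_7 at 214 CPM, Hi_6 at 186 CPM and Lo_3 at 162 CPM, while the next, Hi_2, had 98.6 CPM. Fosb, a close relative of Fos that pairs with the same JUN proteins, ranged from 0.852 CPM in Lo_9 through 8.52 CPM to 134 CPM in Hi_1, a 157-fold range. Its levels left a gap, with 9 tumors at or below 2.23 CPM and 11 tumors at or above 8.0 CPM, and both sides of the gap held Lo as well as Hi tumors (5 Lo and 4 Hi tumors below it). The SD of log2 CPM over the tumors was 1.10 for Fos, higher than for 98.6% of the genes tested, and 2.14 for Fosb, the rank of which from the top was 33.

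Egr1 and the inhibitors of the response came next in spread. Egr1, a zinc finger transcription factor, ranged from 65.9 CPM in Hi_8 through 115 CPM to 487 CPM in Hi_1, and the second highest tumor, Lo_3, had 215 CPM. Zfp36 encodes tristetraprolin, which binds AU-rich elements of mRNA, that of Fos among them, and speeds their decay. It ranged from 38.2 CPM in Hi_8 through 52.0 CPM to 136 CPM in Hi_1, followed by 94.1 CPM in Hi_6 and 92.5 CPM in Hi_7. Dusp1, a phosphatase that inactivates p38, JNK and ERK, was lower, from 7.97 CPM in Hi_3 through 12.6 CPM to 28.1 CPM in Hi_1, with 23.7 CPM in Hi_6 as the second highest. In all 3 genes the highest tumor was the one that was highest for Fos.

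Jun, Junb, Ier2, Atf3 and Nr4a1 varied less. Jun, the main partner of FOS proteins in AP-1, ranged from 39.8 CPM in Lo_2 through 64.8 CPM to 142.5 CPM in Hi_1. Junb, a JUN family member of weaker activity, ranged from 47.7 CPM in Hi_3 through 87.1 CPM to 133 CPM in Hi_1, and Lo_3 followed at 118 CPM. Ier2, a small nuclear protein, ranged from 63.2 CPM in Hi_3 through 87.6 CPM to 141 CPM in Hi_1, so that the same tumors formed both ends of Junb and Ier2. Atf3, a stress-induced member of the ATF/CREB family, ranged from 4.26 CPM in Hi_3 through 7.43 CPM to 13.3 CPM in Hi_6, followed by 11.6 CPM in Lo_11. Nr4a1, an orphan nuclear receptor also known as Nur77, ranged from 92.3 CPM in Hi_2 through 119 CPM to 179 CPM in Lo_8, a 1.94-fold range. The median SD of log2 CPM over the 10 genes was 0.432, beside 0.251 over all 18883 genes tested, and 9 of the 10 lay above that value, all but Nr4a1 at 0.248 (49.4% of genes had a smaller SD).

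**Figure D1:**
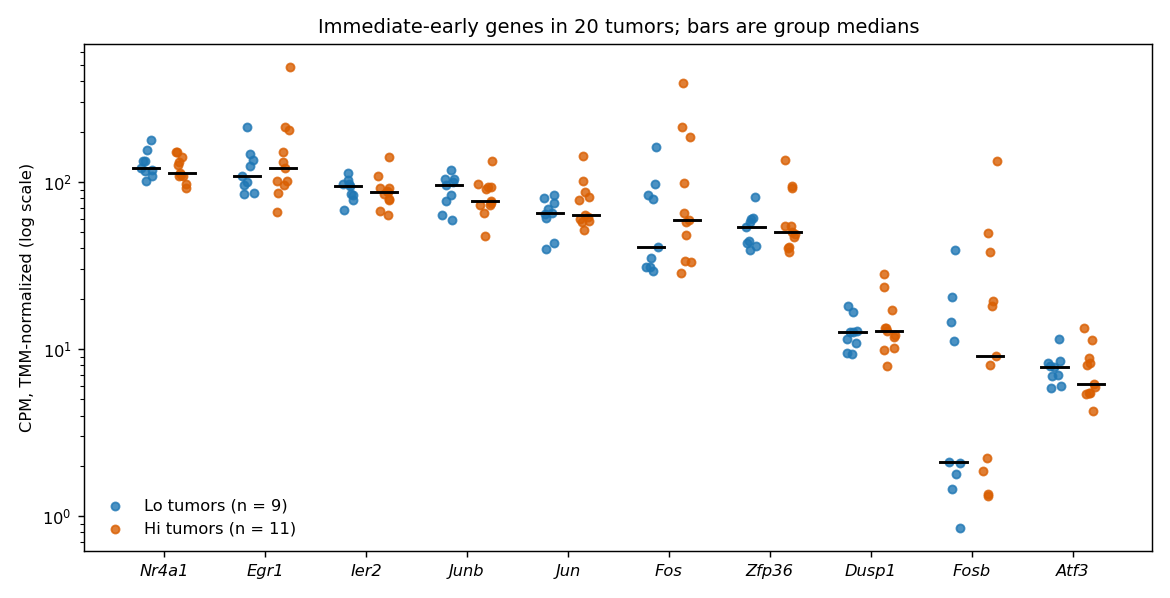
Level of each immediate-early gene in every tumor, in TMM-normalized CPM on a log scale, with Lo tumors (n = 9, blue) and Hi tumors (n = 11, orange) side by side and black bars at the group medians. Fos and Fosb spread most, from 28.7 to 389 CPM and from 0.852 to 134 CPM, Fosb with a gap between 2.23 and 8.0 CPM, and the groups overlap in all 10 genes.

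Hi_1 was the highest tumor in 8 of the 10 genes and among the 4 highest in all 10. Lo_3, Hi_6 and Hi_7 were each among the 4 highest in 7 genes. At the other end, Hi_3 was the lowest tumor in 5 genes (Fos, Junb, Atf3, Ier2 and Dusp1) and among the 4 lowest in 9 of the 10. Lo_8 shows that the order was not shared by all: it had the highest Nr4a1 and the second highest Ier2, while its Fosb was 1.46 CPM and its Jun 43.1 CPM, the second lowest. Since Hi_1 stood apart, relations between genes are also given without it.

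**Figure D2:**
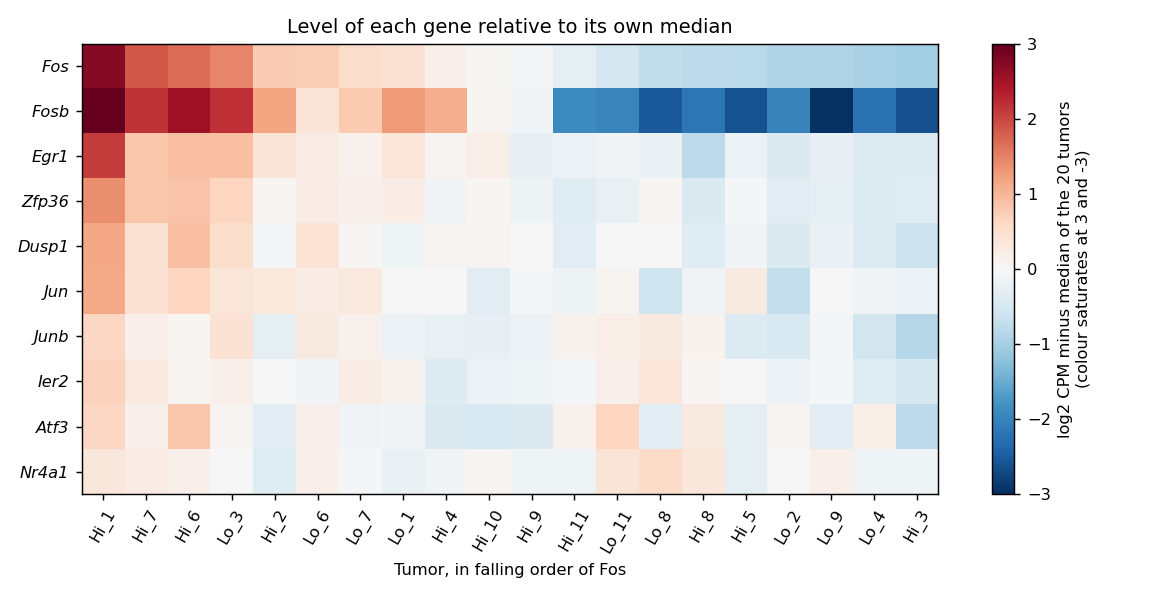
Each gene's log2 CPM minus its median over the 20 tumors, with tumors in falling order of Fos from left to right, red above and blue below the median, and colours that saturate at a difference of 3. The order of Fos is carried by Fosb, Egr1, Zfp36 and Dusp1, more weakly by Jun, and hardly at all by Nr4a1, which is highest in Lo_8.

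Per length of transcript, the order of the genes was another. Median RPKM (CPM without TMM factors, divided by the listed length in kilobases) was 58.6 for Ier2, 47.4 for Junb, 47.4 for Nr4a1, 28.5 for Zfp36, 26.1 for Fos, 24.6 for Egr1, 19.8 for Jun, 4.90 for Dusp1, 3.30 for Atf3 and 2.39 for Fosb. Ier2 exceeded Junb in 19 of 20 tumors, and Jun exceeded Dusp1 in all 20. Neighbours with medians that did not separate the tumors were Junb and Nr4a1 (Junb higher in 7 of 20), Zfp36 and Fos (12 of 20), Fos and Egr1 (10 of 20) and Atf3 and Fosb (12 of 20). In Hi_1, Fos reached 173 RPKM, above the highest RPKM of Ier2 in any tumor, which was 97.0.

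The comparison of Lo with Hi asked whether the only grouping in the labels separates these genes, and none of the 10 passed the test. The counts were tested with edgeR's quasi-likelihood test over all genes. Adjusted p was 0.9997 for each of the 10 genes, and 0 of 18883 genes (0.0%) passed an adjusted p of 0.05. DESeq2 called 1 gene, which was not one of the 10. At an unadjusted p under 0.05 there were 1045 genes (5.53%) and 0 of the 10. The labels name no cultures or batches beyond 1 tumor a mouse, and each tumor gave 1 library from 1 piece. The p-values therefore measure the spread between these libraries. It holds differences between tumors together with those of pieces, handling and sequencing, which cannot be told apart here.

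The lowest unadjusted p belonged to the genes with the widest spread. Fos had a lowest, median and highest level of 29.4, 40.5 and 162 CPM in Lo tumors and of 28.7, 59.2 and 389 CPM in Hi tumors. The range of the Lo tumors lay within that of the Hi tumors, and Hi_1, Hi_7 and Hi_6 lay above every Lo tumor. The log2 fold change of Lo against Hi was -0.75 ± 0.47 (SE; edgeR, p = 0.125). Fosb had 0.852, 2.12 and 38.9 CPM in Lo tumors and 1.33, 9.04 and 134 CPM in Hi tumors, with a log2 fold change of -1.30 ± 0.83 (edgeR, p = 0.133). Both values depended on single tumors. Without Hi_1 the log2 fold changes were -0.33 for Fos and -0.52 for Fosb, and without Lo_3 they were -1.04 and -1.91, where 2 of the 10 genes had an unadjusted p under 0.05 and 0 passed. Egr1 had medians of 108 CPM in Lo and 121 CPM in Hi tumors (log2 fold change -0.39 ± 0.29), which became -0.06 without Hi_1. Jun (-0.25 ± 0.17), Zfp36 (-0.24 ± 0.21) and Dusp1 (-0.20 ± 0.19) had values below 0 as well, which were -0.12, -0.06 and -0.06 without Hi_1. Those of Junb (0.10 ± 0.15), Nr4a1 (0.10 ± 0.11), Atf3 (0.05 ± 0.18) and Ier2 (0.03 ± 0.12) were above 0 by less than 1 SE, all of them within the spread between tumors.

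The relation of every gene to Fos over the tumors was computed as Pearson's r of log2 CPM with a two-sided permutation test. It asks which genes go up and down with Fos when tumors from mice of 1 germline genotype are compared. Of the 9 other immediate-early genes, 5 passed an adjusted p of 0.05, beside 6 of the 18882 genes compared (0.0318%), and all 6 relations were positive. They were Fosb (r = 0.96), Egr1 (r = 0.94), Zfp36 (r = 0.94), Dusp1 (r = 0.90), Jun (r = 0.82) and 1 gene from outside the set, Rgs1 (r = 0.92). Each had a permutation p of 1e-05, the smallest that 100000 permutations can give, and an adjusted p of 0.0315. A limma model with Fos as a covariate, which has no such limit, called 6 genes as well. An unadjusted p under 0.05 was reached by 1129 genes. Since the set was chosen with earlier results of these data known, 5 of 9 beside 0.0318% describes these tumors and is not an independent test of the set.

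The relations of Fosb, Egr1, Zfp36 and Dusp1 with Fos held in each run that left out 1 or 2 tumors. Spearman's rho was 0.95 for Fosb, 0.93 for Egr1, 0.88 for Zfp36 and 0.87 for Dusp1, each with a permutation p of 1e-05. Without Hi_1 and Hi_7, the tumors farthest from the median of Fos, r was 0.95, 0.93, 0.89 and 0.85 in the same order. Within Lo, r was 0.96 for Fosb, 0.96 for Egr1, 0.94 for Zfp36 and 0.85 for Dusp1, and within Hi it was 0.96, 0.95, 0.95 and 0.92. The 4 genes and Rgs1 were called in each of the 20 runs that left out 1 tumor. Jun was called in only 6 of them, with r from 0.73 (without Hi_1) to 0.86, and not by Spearman's rho (0.76, permutation p = 0.00016, adjusted p = 0.432) or without the 2 farthest tumors (r = 0.70).

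**Figure D3:**
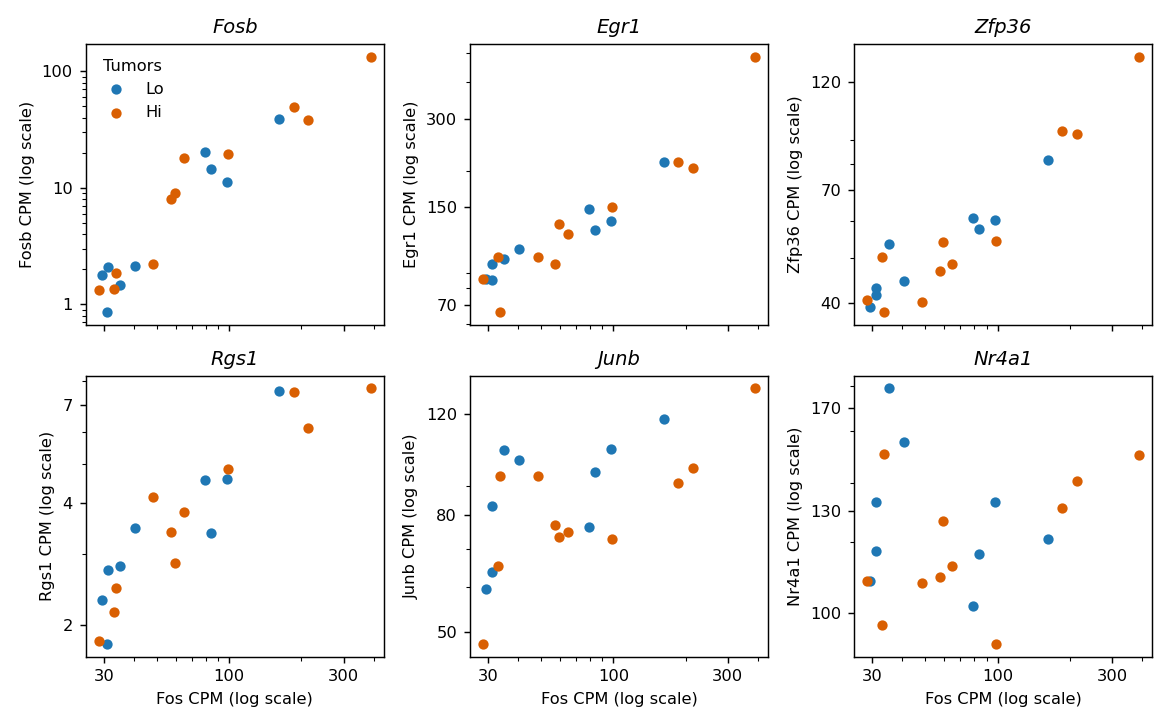
Levels of Fosb, Egr1, Zfp36, Rgs1, Junb and Nr4a1 against that of Fos, in CPM on log scales, 1 point a tumor (Lo blue, Hi orange). The first 4 genes follow Fos closely over the tumors (r from 0.92 to 0.96). Egr1 and Zfp36 scatter more where Fos is low, and both are lowest in Hi_8, which has 33.65 CPM of Fos. Junb follows Fos loosely (r = 0.63), and Nr4a1 shows its highest level in a tumor with little Fos (r = 0.14).

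Junb, Ier2, Atf3 and Nr4a1 did not pass. Junb had r = 0.63 with Fos (permutation p = 0.00266, adjusted p = 0.767) and Ier2 had r = 0.62 (permutation p = 0.00357, adjusted p = 0.776). With Hi_1 and Hi_7 left out, r was 0.50 for Junb and 0.33 for Ier2, and without Hi_1 alone 0.52 and 0.43, so part of each value rested on tumors with the most Fos. Atf3 had r = 0.46 (adjusted p = 0.825), from 0.06 within Lo to 0.67 within Hi. Nr4a1 had r = 0.14 (adjusted p = 0.959), which was -0.27 within Lo and 0.49 within Hi, and -0.13 without the 2 farthest tumors. Whether Atf3 or Nr4a1 relate differently to Fos in the 2 groups was not tested.

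**Figure D4:**
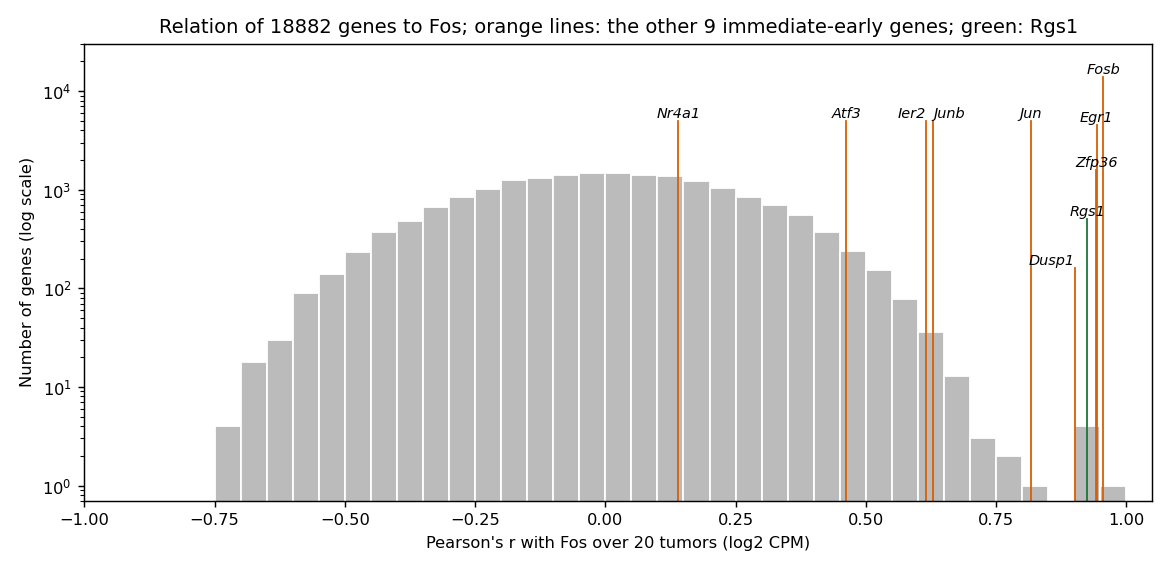
Number of genes (log scale) by Pearson's r with Fos over the 20 tumors, for 18882 genes in bins of 0.05, with orange lines at the other 9 immediate-early genes and a green line at Rgs1. Only 6 genes exceed r = 0.8, of which 5 are immediate-early genes of the set.

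Rgs1, the gene from outside the set that followed Fos, encodes a regulator of G protein signalling that is best known from lymphocytes. It lies at chr1:144242296-144249242 and was a gene of low level, from 1.80 CPM in Lo_9 to 7.69 CPM in Hi_1, with 92 to 400 counts a tumor. Its levels in the 4 tumors with the most Fos were 7.69, 6.14, 7.51 and 7.56 CPM for Hi_1, Hi_7, Hi_6 and Lo_3, and the highest of the other tumors had 4.86 CPM. Spearman's rho with Fos was 0.94, and r was 0.93 without the 2 farthest tumors, 0.91 within Lo and 0.94 within Hi. Of 7 leukocyte markers, 0 passed with Fos and their r went both ways, with 2 above and 5 below 0, from -0.53 for Ptprc to 0.34 for Lcp1 and a median of -0.10.

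The next genes most like Fos fell well below these. Coq7, an enzyme of coenzyme Q synthesis, had r = 0.77 (adjusted p = 0.189), Junos had r = 0.76 (adjusted p = 0.189), and Adarb2 (0.73), Nudt1 (0.72), Cpsf3 (0.70), Cradd (0.69), Haus1 (0.69), Anapc7 (0.69) and Cutc (0.68) followed. None of these passed the threshold. The lowest values belonged to Txndc11 (r = -0.74, adjusted p = 0.399), Plcxd2 (-0.73), Fam46a (-0.70), Cds1 (-0.69) and Edem1 (-0.67). Averaged over all 10 immediate-early genes, r was highest for Rgs1 (0.69), Ppp1r15a (0.66), Ngfrap1 (0.62), Zc3hc1 (0.61) and Cutc (0.61). Ppp1r15a, also known as GADD34, directs the removal of phosphate from the translation factor eIF2 alpha.

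Among themselves, the 10 genes form 45 pairs, and r was above 0 in all 45. It ranged from 0.00 (Fosb with Nr4a1) to 0.96 (Egr1 with Zfp36), with a median of 0.62 and 31 pairs above 0.5. Over all pairs of genes tested the mean r was 0.00, beside 0.61 for these 45. The sign depended on Hi_1 in 4 pairs of Nr4a1, which were below 0 without that tumor (with Fos -0.01, Fosb -0.15, Jun -0.19 and Egr1 -0.05). Within Lo 8 pairs were below 0, and within Hi none. Without Hi_1 the median was 0.48, and it was 0.52 within Lo and 0.74 within Hi.

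Fos, Fosb, Egr1, Zfp36 and Dusp1 were tightly related to each other, with r from 0.83 to 0.96 over their 10 pairs and from 0.77 to 0.95 without Hi_1. Each of these 5 was also used in turn in the place of Fos. Fosb called 4 of the other 9 immediate-early genes beside 5 genes in all (0.0265%), as did Egr1 (0.0265%) and Zfp36 (0.0265%), and the fifth gene was Rgs1 each time. Dusp1 called 4 of 9, and these were all the genes it called (0.0212%). In each case the 4 were the other genes of this group of 5. The group was put together after these values were seen, and by Spearman's rho fewer of the 4 passed: 2 for Fosb, 3 for Egr1 and none for Zfp36 or Dusp1. By rho, Zfp36 still had the smallest permutation p of 1e-05 with Fos (0.88) and with Egr1 (0.92). Dusp1 had it with Fos (0.87). Too few genes reached that p for it to pass, so these counts alone do not show weaker relations.

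**Figure D5:**
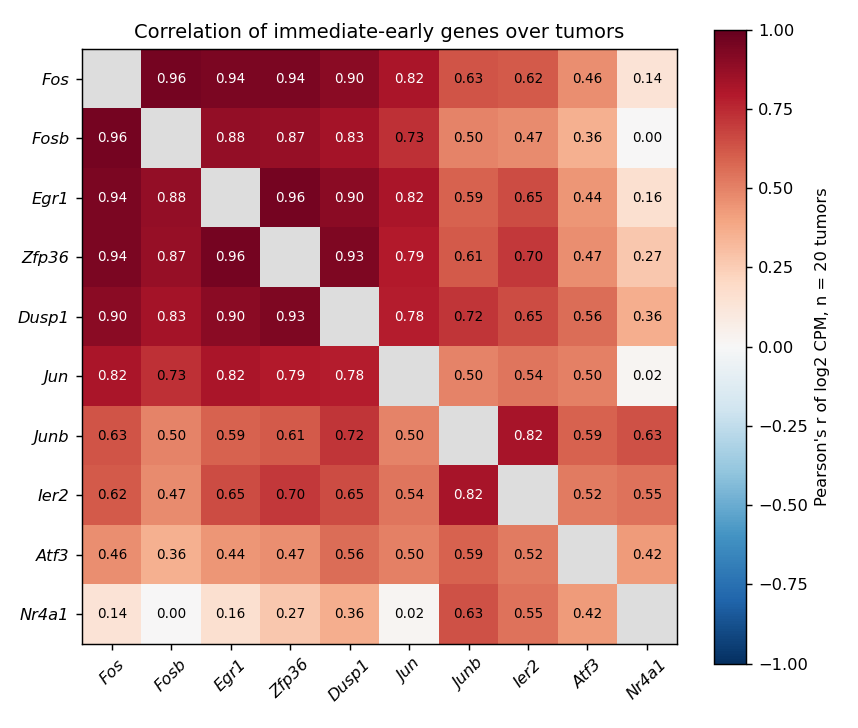
Pearson's r of log2 CPM over the 20 tumors for every pair of the 10 immediate-early genes, from blue (-1) to red (1). Fos, Fosb, Egr1, Zfp36 and Dusp1 form a block with r from 0.83 to 0.96, Junb and Ier2 stand close to each other (0.82), and Nr4a1 is related more to Junb (0.63) and Ier2 (0.55) than to Fos (0.14).

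Jun was related to these 5 genes with r from 0.73 to 0.82, and from 0.63 to 0.73 without Hi_1. With Jun in the place of Fos, 0 of 9 and 0 of 18882 genes (0.0%) passed by Pearson's r or by Spearman's rho, while 801 had an unadjusted p under 0.05. The permutation p of Jun with Fos was 1e-05, the smallest possible, as in the run with Fos. That p passes only where enough genes reach a p as small. The 0 by Pearson's r therefore does not show that Jun lacks relations. Its closest gene was Junos (r = 0.93, adjusted p = 0.0944), which shares bases with it. The gene for the matricellular protein CYR61, a known target of YAP and SRF, had r = 0.74 with Jun (adjusted p = 0.504) and 0.62 with Fos (adjusted p = 0.776).

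Junb and Ier2 had r = 0.82 with each other, 0.76 within Lo and 0.86 within Hi, and 0.77 without Hi_1. With Ier2 in the place of Fos, Junb was the only 1 of 9 immediate-early genes that passed, beside 167 genes in all (0.884%), 135 of them positive (0.715%), and 0 genes passed by Spearman's rho. With Junb in that place, 0 genes (0.0%) passed by either measure, 2411 had an unadjusted p under 0.05, and Ier2 had an adjusted p of 0.0629. The permutation p of Ier2 with Junb was 1e-05, the smallest possible, which too few genes reached for it to pass. The genes most like Junb were Akt1s1 (r = 0.86) and Ppp1r15a (r = 0.85), both with an adjusted p of 0.0629. Those most like Ier2 were Atp5d (r = 0.88) and Pih1d1 (r = 0.87), and its lowest was Taf1 (r = -0.83). The genes named here for Junb and Ier2, and below for Nr4a1 and Atf3, were chosen after their values were seen.

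The early genes that passed with Nr4a1 were others than those that passed with Fos, a difference that was not tested in itself. None of the 9 passed with Nr4a1, beside 145 genes in all (0.768%), 71 of them positive (0.376%) and 74 negative, and by Spearman's rho 0 of the 9 beside 43 genes. Among the 145 were 2 of 28 early effector genes from a fixed list, Per1 (r = 0.79), a clock gene, and Ier3 (r = 0.74). From another list there were 2 of 17 other early transcription factors, Maff (r = 0.74), a small MAF protein, and Csrnp1 (r = 0.72). The lists of upstream factors, of phosphatases and ERK outputs and of AP-1 partners held none. The mean z-score of 17 other early transcription factors, which holds none of the 10 genes, had r = 0.75 with Nr4a1 (permutation p = 0.0001, adjusted p = 0.018 over 180 relations of the 10 genes with 18 measures), with r = 0.77 within Lo, 0.74 within Hi and a Spearman's rho of 0.72. It was the only 1 of the 180 to pass by Pearson's r. With Fos, the same score had r = -0.00. Of the genes in this score, Maff, Klf10 and Myc lie on chromosome 15, as Nr4a1 does, and the part of its dosage in the relation was not tested. The genes most like Nr4a1 over all were Rab3a (r = 0.83), Atg9b (r = 0.83) and Slc7a5 (r = 0.81), a transporter of large neutral amino acids, and the lowest was Stambpl1 (r = -0.84).

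With Atf3, 0 of the 9 passed either, beside 377 genes in all (2.0%), 187 positive (0.99%) and 190 negative, and by Spearman's rho 0 of the 9 beside 1667 genes (8.83%). Its r was above 0 with all 9, with a median of 0.47 beside 0.02 over all genes. It was highest with Junb (r = 0.59, permutation p = 0.00638, adjusted p = 0.218 with Junb in the place of Fos). Within Lo, r with the 9 ran only from -0.26 (Ier2) to 0.24 (Jun). With Junb it was 0.01 within Lo and 0.83 within Hi, and whether the groups differ was not tested. Over all tumors, the highest r with Atf3 belonged to Rpl8 (0.87) and Rpl28 (0.85), which encode ribosomal proteins. Rps10-ps2 (0.82) followed, a pseudogene for which the counting may have shared reads with Rps10 (0.80). No list of ribosomal protein genes was tested. B130055M24Rik (r = -0.94) and Dicer1 (r = -0.88), which cuts microRNA precursors, were lowest. Atf3 also passed with the epithelial marker Krt18 (r = 0.73), the macrophage marker Cd68 (r = 0.73) and the leukocyte marker Lcp1 (r = 0.71). These were 1 of 7 epithelial, 1 of 8 macrophage and 1 of 7 leukocyte markers. The median r was 0.45, 0.49 and 0.35 over these lists, and -0.36 over 5 T cell markers. The r of Atf3 with the score of 5 RNAs that stay in the nucleus (Malat1, Neat1, Xist, Meg3 and Kcnq1ot1) was -0.65 (adjusted p = 0.109). The rho was -0.81 (adjusted p = 0.009), with the score from -1.54 to 1.25 over the tumors. With the score of 7 epithelial markers, r was 0.67 (adjusted p = 0.0972) and rho 0.75 (adjusted p = 0.0189), with that score from -1.14 to 1.44. Their part in the level of Atf3 was not tested.

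Other genes of the response were taken from 5 lists: other early transcription factors, other early effector genes, the transcription factors upstream, MAP kinase phosphatases with other outputs of ERK, and partners of AP-1. Of their 83 genes, 80 were tested and 0 passed with Fos by permutation, while 7 had an unadjusted p under 0.05. The median r was 0.00 over 17 early transcription factors, 0.05 over 28 effector genes, 0.05 over 10 upstream factors, 0.07 over 15 phosphatases and ERK outputs, and -0.08 over 10 AP-1 partners, beside 0.00 over all genes. Close relatives of the genes that followed Fos were among those that did not pass, with Egr2 at r = 0.27, Egr3 at -0.01, Fosl1 at -0.16, Fosl2 at -0.21 and Jund at 0.34. Cyr61 (0.62), Nfkbiz (0.56), Nr4a3 (-0.56) and Trib1 (-0.53), the last an adaptor for protein degradation, were farthest from 0. Nr4a3 was close to undetected, at 0.265 to 0.941 CPM. Srf itself had r = 0.45 (adjusted p = 0.825), and Etv4, an output of ERK, had r = 0.34. Between Lo and Hi, 0 of the 80 passed in edgeR's test and 6 had an unadjusted p under 0.05.

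Markers of cell types and measures of the libraries did not pass with Fos. The scores of 16 lists, the total count and the share of counts on the ribosomal RNA locus gave 18 relations, with r from -0.39 (AP-1 partners) to 0.26 (adipocytes). None passed an adjusted p of 0.05, none had an unadjusted p under 0.05 by Pearson's r, and 1 had by Spearman's rho, that of fibroblasts (rho = -0.49, permutation p = 0.0311, adjusted p = 0.561, r = -0.33). Leukocytes had r = -0.19, macrophages -0.11, T cells -0.30, neutrophils 0.13, endothelial cells -0.19, pericytes and smooth muscle -0.04, and epithelial cells 0.17. Heat shock genes, which respond to damaged protein, had r = -0.20, the total count -0.10 and the share on the ribosomal RNA locus -0.21. Of the 60 cell type markers tested singly, 0 passed with Fos and 3 had an unadjusted p under 0.05.

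The last comparison asked whether gain or loss of whole chromosomes went with the level of these genes, since tumors of this cross gain and lose chromosomes, chromosome 4 in particular, where Jun lies. The dosage of a chromosome was taken as the median log2 level of its genes relative to the other tumors and to the autosomes. Jun did not follow chromosome 4, with r = 0.13 (permutation p = 0.594, adjusted p = 0.787), although the dosage of that chromosome ranged from -0.21 to 0.37 and 39.2% of its 1165 genes passed, a share that was 8.62% for the 951 genes of chromosome 8. Over all genes 2262 of 18878 (12%) passed, and so did 2 of the 10 immediate-early genes. These were Ier2 (r = 0.75, adjusted p = 0.00731) and Junb (r = 0.70, adjusted p = 0.0137), both with the dosage of chromosome 8. That dosage ranged only from -0.07 in Lo_4 to 0.04 in Hi_1, both relations failed the threshold by Spearman's rho (0.62 and 0.56, adjusted p = 0.0555 and 0.0921) and without the 2 tumors farthest from its median (r = 0.65 and 0.59). The r of Nr4a1 with chromosome 15 was 0.55 (adjusted p = 0.0724). Fos, with r = 0.25 to chromosome 12, and the other genes of its group, from 0.20 for Dusp1 to 0.35 for Zfp36, did not pass.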

How the data were processed

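RNA of 20 F1 tumors was sequenced in paired-end reads (TruSeq mRNA libraries), which were cut to 100 bases and mapped on mm10 by TopHat, run in MapRseq. The submitters' processing notes name TopHat2 2.0.12 and featureCounts 1.4.4. The strand setting and annotation release are not given in the sources used here. Raw read counts by gene were deposited, with a column for each tumor and nothing pooled. Groups were read from the sample names.

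Log2 CPM (TMM, prior count 2) and RPKM (listed length, total count) were computed here. Lo was tested against Hi with edgeR 4.0.16 (filterByExpr, TMM, quasi-likelihood, Benjamini-Hochberg at 0.05), with DESeq2 1.42.0 as an alternative. Relations were tested over all genes with 100000 two-sided permutations of tumors, with limma 3.58.1 as an alternative added after the data were seen (R 4.3.3, Python 3.11.15, numpy 2.4.6, pandas 2.3.3, scipy 1.17.1, matplotlib 3.10.9). Dosage rested on genes whose mean CPM reached 5. With 18882 genes and a smallest p of 1e-05, at least 4 genes must share it for any to pass. The edgeR and correlation scripts were tested on simulated data. Other settings were RLE factors, library totals without Yam1 and AY036118, no filter on low counts, log2(RPKM + 1), a prior count of 0.5, Spearman's rho, a replicate block and leaving out tumors.

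The members and lists were chosen with earlier results of these data known. Named were the 10 genes, the 10 genes with the highest and the 5 with the lowest r with Fos and the 5 with the highest mean r (mean log2 CPM of at least 1), and genes of the lists. Errors are spreads over tumors, and no intervals of counting error are given.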

Additional observations from a re-analysis of the deposited data

Results flagged for a closer look

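Within the 9 Lo tumors, 2 of the 10 genes had a highest tumor that stood far from the others (gap to the next tumor over the whole range above Dixon's critical value). Egr1 was at 215 CPM in Lo_3, and the next Lo tumor had 148 CPM. In Lo_3, Fos (162 CPM), Fosb (38.9 CPM), Junb (118 CPM) and Zfp36 (81.3 CPM) were also the highest of the Lo tumors. Atf3 was at 11.6 CPM in Lo_11, and the next Lo tumor had 8.52 CPM, while Fos was at 40.5 CPM there, the median of the Lo tumors. For normally distributed values, chance alone gives such a gap in about 1 of 20 groups. The rule was applied here to CPM rather than log2 CPM, and to both ends of each of the 10 genes. That rate therefore need not hold for these 2 genes. The 11 Hi tumors were too many for this rule and were not examined with it.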

How the results depend on the processing

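The count of genes that differ between Lo and Hi was 1 without a filter on low counts and 1 with DESeq2, neither an immediate-early gene, and 0 in the other settings and in every run without 1 tumor. The count called with Fos fell to 0 genes and 0 immediate-early genes without a filter, since 6 genes at the smallest permutation p cannot pass over 31852 genes, where limma called 6. Runs without 1 tumor called 5 to 7 genes and 4 to 5 immediate-early genes. Same-numbered Lo and Hi tumors did not deviate together (9 pairs, r from -0.418 to 0.208), so the numbers were not taken to pair them. With the number as a replicate block, 0 genes and 0 immediate-early genes passed with Fos, where the smallest possible p was 0.00391, while limma with the block called 5 genes, without Jun. In the edgeR comparison of Lo with Hi, the block gave 0 genes, with 1 of the 10 at an unadjusted p under 0.05 and a log2 fold change of -1.65 for Fosb.

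Own-chromosome dosage was passed by 1412 genes and 0 of the 10 by Spearman's rho, and by 541 and 0 without the 2 farthest tumors. Values near 0 changed sign. The log2 fold change of Lo against Hi lay between -0.0144 and 0.116 for Ier2 and between -0.0398 and 0.167 for Atf3 without 1 tumor, and r of Nr4a1 with Fos between -0.0146 and 0.284, and at -0.131 without the 2 farthest tumors. Without the 2 farthest tumors, r with the own chromosome was -0.123 for Fosb and -0.145 for Jun. In the same setting r of Fos was -0.0575 with other early effector genes, -0.13 with upstream factors, 0.0327 with heat shock genes, 0.0426 with leukocytes, 0.0677 with endothelial cells and 0.172 with pericytes and smooth muscle. On the log2(RPKM + 1) scale, r of Fos was 0.141 with other early transcription factors, 0.0326 with macrophages and 0.0413 with pericytes and smooth muscle. For single genes and lists, sign and call were unchanged in 177 of 206 values from other settings and in 360 of 380 from runs without 1 tumor. With 20 tumors and many genes, only strong relations could pass. Of the 10 genes, Fosb had the fewest reads in any tumor and Atf3 the lowest median.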
